A study of Mus musculus with 2 samples.

Results

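The IFITM genes encode small membrane proteins that interferon induces in many cells and that make membranes less ready to fuse with the coat of an entering virus. IFITM3 works mainly in endosomes and lysosomes, while IFITM1 is found more at the cell surface. In bone, interferon signalling is known as a brake on the formation of osteoclasts, the bone-resorbing cells that arise from macrophages. The 4 members described here, Ifitm1, Ifitm2, Ifitm3 and Ifitm6, are of the 16614 genes listed in the files. They were chosen by symbol, and the family was chosen because Ifitm1 was already known to be higher in the Foxo3 knockout library while most interferon genes were lower. That contrast is therefore a description and supports nothing.

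The 2 libraries came from C57BL/6 mice, 1 with the Foxo3 KO genotype and 1 with the WT genotype. FoxO3 is a forkhead transcription factor, and the study asked how it bears on osteoclast formation. Both cultures were bone marrow cells kept for 3 days in M-CSF, the macrophage growth factor, followed by 2 days of RANKL, which sets off osteoclast formation. The labels do not give the form of the knockout allele, the age or sex of the mice, or whether marrow was pooled, and no culture without RANKL was analysed here. With 1 library per genotype no value has a replicate error, no test was possible, and each difference describes these 2 libraries rather than the genotypes.

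Values are FPKM, a level per transcript length and per library size. The log2 ratio is log2(KO + 1) minus log2(WT + 1), which understates differences of low genes, and a gene counted as measured at 1 FPKM or more in 1 library. Foxo3 itself stood at 0.548 FPKM in the KO and 10.3 FPKM in the WT library. By the spacing of values among low genes, the KO library was 1.40 times as deep as the WT library, and absolute depth is unknown. Of 10003 measured genes, 0.120% were at least 2-fold higher in the KO library and 0.200% at least 2-fold lower. At 1.5-fold these shares were 0.410% and 0.940%. The median log2 ratio was 0.03, and 57.6% of genes were above 0, or 50.3% after trimmed-mean scaling.

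Osteoclast markers were high in both libraries, led by the phosphatase gene Acp5 at 8636 FPKM in the KO and 7737 FPKM in the WT library. Of 15 such markers, 11 were higher in the KO library, with a median log2 ratio of 0.16. Of 21 measured macrophage markers, 20 were lower, with a median of -0.25, and the list was led by Lyz2 at 5674 FPKM in the KO and 7501 FPKM in the WT library and by Cd68 at 1546 FPKM in the KO and 1573 FPKM in the WT library. Of the 21, 3 were at least 1.5-fold lower, Mrc1 (log2 ratio -0.63), Mertk (-0.61) and Cd36 (-1.38), all chosen after their values were seen. Cd36 was also past 2-fold. Over all measured genes 0.940% were at least 1.5-fold lower and 0.200% at least 2-fold lower. In bulk RNA, fewer cells of a type and less RNA per cell cannot be told apart. Markers of other cells summed to at most 40.4 FPKM in the KO library and 43.6 FPKM in the WT library for each of the progenitor, mast and basophil, stromal, endothelial, lymphoid and dendritic lists.

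All 4 members lie on mouse chromosome 7 within 62.1 kb (mm10, GENCODE M21). Ifitm2 (140954837 to 140955987), Ifitm3 (141009586 to 141010770) and Ifitm6 (141015699 to 141017924) are on the minus strand. Ifitm1 (140967221 to 140969825) lies between Ifitm2 and Ifitm3 on the plus strand. Ifitm2 and Ifitm3 have 1 annotated transcript each, with 2 exons, and Ifitm1 and Ifitm6 have 3 each. The coding sequence of Ifitm1 is 321 bases long, against 435 bases for Ifitm2, 414 bases for Ifitm3 and 375 bases for the longest form of Ifitm6. Over aligned coding bases Ifitm1 was 81.9% identical to Ifitm3 and 81.6% identical to Ifitm2, and Ifitm2 was 80.8% identical to Ifitm3. Ifitm6 was the most distant, with 64.6% to 68.8% identity to the others.

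The DNA around the start sites differed between the members. RefSeq windows (GRCm38.p6, the assembly called mm10) from 250 bases before to 50 bases after 1 start site per gene were searched on both strands. The motifs were the core of the interferon-stimulated response element bound by interferon regulatory factors, which is GAAA, any 2 bases and GAAA again, TTCNNNGAA, the gamma-activated site bound by STAT dimers, and GTAAACA, a forkhead motif of the kind FoxO factors bind. The response element core was found in the windows of Ifitm2 and Ifitm3 and in those of neither Ifitm1 nor Ifitm6. Each match is shown because it separates the searched windows, 5′ to 3′ on the gene's own strand, with the letters of any of the 3 motifs in capitals.
Ifitm2, chr7:140955991-140956014, minus strand, response element core: ccaacagGAAAAGGAAAttgctag
Ifitm3, chr7:141010726-141010749, minus strand, first core: aattcagGAAAAGGAAAcTTCTGA
Ifitm3, chr7:141010709-141010732, minus strand, second core with TTCNNNGAA across it: cTTCTGAGAAACCGAAActgccgc
Ifitm6, chr7:141016887-141016909, minus strand, TTCNNNGAA: tatgaacTTCCTTGAAacaagag
Ifitm1, chr7:140968103-140968123, plus strand, GTAAACA: ccaaattGTAAACAtaaggaa

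The Ifitm2 core lay 46 to 37 bases before the RefSeq start. The Ifitm3 cores lay at bases 3 to 12 and 20 to 29 after it, where the gamma-activated site at bases 14 to 22 overlaps the second core. The Ifitm1 forkhead match lay at bases 35 to 41 after the start, inside the transcribed part, and the windows of the other 3 members had none. Across all 32851 windows of this length 3.44% held the core, 8.30% held TTCNNNGAA and 3.65% held GTAAACA. The window of Ifitm1 belongs to the downstream start, and sequence at the start annotated farther upstream was not used here. The searched start was 140955961 for Ifitm2 and 141016892 for Ifitm6. RefSeq extends Ifitm2 to 140959686 and GENCODE extends Ifitm6 to 141017924, and these upstream ends were not searched either. A missing motif is therefore missing from the searched window only. The stretch of Ifitm1 from 250 to 49 bases before the searched start is shown as DNA in which none of the 3 motifs was found. It lies inside the annotated gene, which begins at 140967221 in GENCODE, and is upstream of the searched start only.
Ifitm1, chr7:140967826-140968027, plus strand: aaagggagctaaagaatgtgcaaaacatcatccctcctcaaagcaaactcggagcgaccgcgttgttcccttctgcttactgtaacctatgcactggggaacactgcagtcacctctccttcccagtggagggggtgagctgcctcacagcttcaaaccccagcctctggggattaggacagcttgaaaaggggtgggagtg
A match describes letters in a window and is no measure of binding.

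Ifitm1 stood at 22.3 FPKM in the KO library and 11.9 FPKM in the WT library, 1.87 times as high in the KO library, with a log2 ratio of 0.85. It passed 1.5-fold but not 2-fold on this scale. Among 6165 genes at 10 FPKM or more in 1 library it ranked 6 from the top by log2 ratio, behind 5 genes that include Actr3, Gm14295, Scand1 and Slc6a12. Of 2189 other measured genes whose mean level lay within 0.5 (log2) of that of Ifitm1, 2 had a ratio as high. These were Scand1, whose exons overlap Cnbd2, and Actr3, which is listed at 0 in the WT library. The middle 90% of those 2189 genes ran from -0.23 to 0.24. The family was chosen because Ifitm1 was known to be higher in the KO library. The rank of Ifitm1, these counts and its passing of 1.5-fold therefore restate that choice and support nothing.

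Ifitm2, whose protein is known in endosomes like that of Ifitm3, was the most abundant member, at 696 FPKM in the KO library and 637 FPKM in the WT library, with a log2 ratio of 0.13. Among 102 other genes of like level, 33 had a ratio as high, so the value lay within the bulk of genes of its level. Its exons overlap the protein-coding model Gm45717 on the same strand.

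Ifitm3, the member best known for blocking influenza virus in mice, stood at 363 FPKM in the KO library and 415 FPKM in the WT library, with a log2 ratio of -0.19. Of 145 other genes of like level, 9 were as low. The ratio was below 0, while that of Ifitm2 was above 0 but within the bulk of genes of its level. Both searched windows hold the same 10-base core, and that of Ifitm3 also holds a second core and a gamma-activated site. The part of these motifs in the ratios was not tested.

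Ifitm6 was the least abundant, at 8.24 FPKM in the KO library and 11.0 FPKM in the WT library, with a log2 ratio of -0.37, the lowest of the family. Of 2131 other genes of like level, 49 were as low. None of the 4 members differed by 2-fold, and Ifitm1 alone of the 4 passed 1.5-fold, against 0.410% of all measured genes that were 1.5-fold higher.

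**Figure D1:**
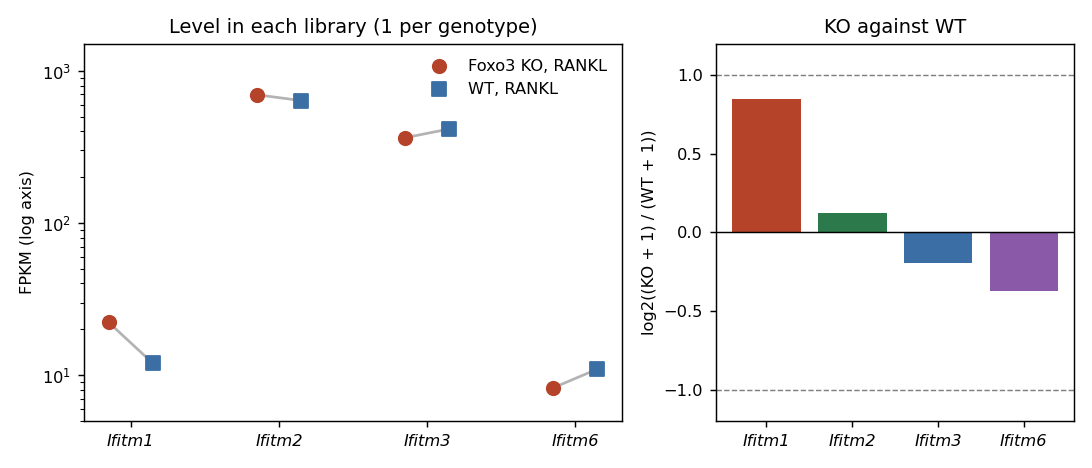
Levels of the 4 members in FPKM on a log axis (left; circles Foxo3 KO, squares WT, 1 library each) and their log2 ratios (right; dashed lines mark 2-fold in either direction). Ifitm1, at 22.3 FPKM in the KO and 11.9 FPKM in the WT library, has the tallest bar at 0.85, and Ifitm3 and Ifitm6 lie below 0.

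**Figure D2:**
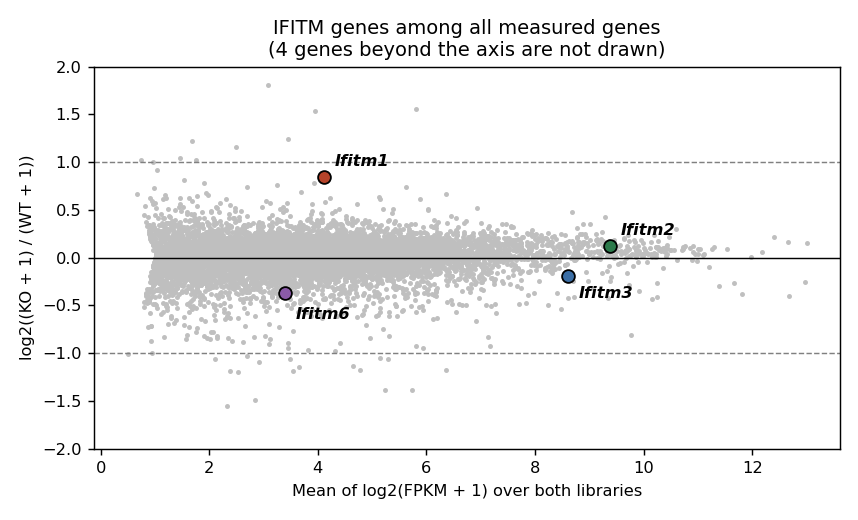
Log2 ratio against the mean of log2(FPKM + 1) over both libraries for all 10003 measured genes (grey; 4 lie beyond the axis and are not drawn), with the 4 members in colour. Ifitm1 lies above the cloud of genes of its level, Ifitm2 within it, and Ifitm3 and Ifitm6 towards its lower edge. The family was chosen because Ifitm1 was known to be higher in the KO library.

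The summed level of the family barely differed, at 1089 FPKM in the KO library and 1075 FPKM in the WT library, a ratio of 1.01. Its make-up did differ. Ifitm1 held 2.04% of the family total in the KO library and 1.11% in the WT library. Ifitm2 held 63.9% in the KO and 59.3% in the WT library, while Ifitm3 held 33.3% in the KO and 38.6% in the WT library. Ifitm6 held 0.757% in the KO and 1.02% in the WT library. The order of the levels was the same in both libraries, from Ifitm2 through Ifitm3 and Ifitm1 to Ifitm6.

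Ratios between members within a library do not depend on scaling between libraries. Ifitm3 was 16.3 times as abundant as Ifitm1 in the KO library and 34.8 times as abundant in the WT library. Ifitm1 stood at 2.70 times the level of Ifitm6 in the KO library and 1.09 times in the WT library, so that the 2 low members were nearly level in WT and apart in KO cells. Ifitm2 was 1.92 times as abundant as Ifitm3 in the KO library and 1.54 times in the WT library. The spread between replicate cultures of such ratios is unknown.

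Similar copies can exchange reads, and how the authors assigned reads of similar genes is not given in the sources used here. Of the distinct 50-base stretches in Ifitm1 transcripts, 5.02% also occur in a transcript of another gene, 15 of them in Ifitm3 and 39 in the model Gm7676. For Ifitm3 the share was 10.02%, and for Ifitm6 it was 0. For Ifitm2 it was 48.5%, mostly through the overlapping model Gm45717. With stretches of 25 bases the shares were larger, at 15.7% for Ifitm1, 60.2% for Ifitm2, 25.4% for Ifitm3 and 0.114% for Ifitm6. At that length Ifitm1 shared most with the model Gm7676, at 134 stretches, then 47 with Ifitm3, 35 with Ifitm7 and 21 with Ifitm2. Of these, Ifitm3 was lower in the KO library and Ifitm2 was higher. The part of read sharing in these values was not tested.

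The remaining IFITM genes were near or at 0. Ifitm5, known for its role in osteoblasts, stood at 0.532 FPKM in the KO and 0.514 FPKM in the WT library. Ifitm7, on chromosome 16, was listed at 0 in both, and Ifitm10 was listed at 0 in the KO and at 0.0127 FPKM in the WT library. The 6 genes of the wider dispanin family that were found, Prrt1, Prrt2, Syndig1l, Tmem233, Tmem91 and Tusc5, reached no more than 0.138 FPKM.

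Genes beside the cluster did not share the Ifitm1 ratio. Within 250 kb of the members 13 other genes were measured, with 7 above 0 and 6 below, and a median log2 ratio of 0.02, against 0.03 over all measured genes. The highest was the mitochondrial deacetylase gene Sirt3, at 16.2 FPKM in the KO and 11.6 FPKM in the WT library (log2 ratio 0.46), whose exons overlap those of Ric8a and Psmd13. Athl1, next to Ifitm5, had a log2 ratio of 0.28 and Lrrc56 one of 0.24, with exons that overlap Lmntd2. Ptdss2 and Rassf7 had ratios of 0.15 and 0.13. Bet1l, the lowest, had one of -0.08, and Rnh1, the ribonuclease inhibitor gene, one of -0.07. Sigirr stood at -0.06, Phrf1, whose exons overlap those of Irf7, at -0.04, Ric8, the file's symbol for Ric8a, at -0.01 and the proteasome gene Psmd13 at 0.02. Irf7, a transcription factor that drives interferon genes, lies at the edge of the window and read 26.3 FPKM in the KO and 27.2 FPKM in the WT library.

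**Figure D3:**
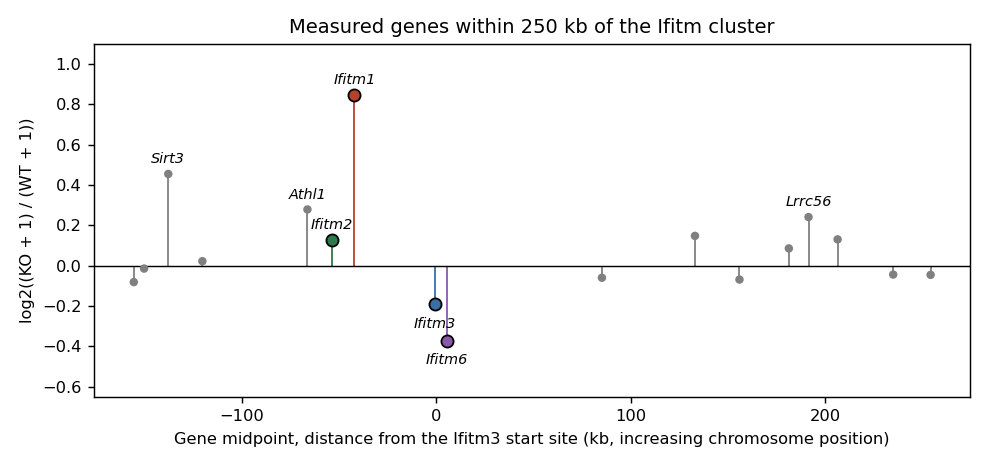
Log2 ratio of each measured gene within 250 kb of the IFITM cluster against the distance of its midpoint from the Ifitm3 start site in kb (large points are the 4 members). Ifitm1 reaches 0.85, Sirt3 0.46, and the other neighbours lie between -0.08 and 0.28.

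Set beside the interferon pathway, Ifitm1 lay above all 69 measured genes of the interferon-stimulated list, while the other 3 members lay inside their range. The family was chosen with this contrast known, so it is a description only. The list holds no IFITM gene, and 49 of the 69 were lower in the KO library and 20 higher. Their median log2 ratio was -0.13, against 0.03 over all measured genes, and they ran from -0.62 to 0.46. Ifitm3, at -0.19, was above 23 of them, and the rest were higher than Ifitm3. None of the 69 passed 2-fold, against 0.120% of all measured genes higher and 0.200% lower. At 1.5-fold 1 was lower, Pyhin1, chosen after its value was seen, against 0.940% of all measured genes. Of the named genes, Ifi204, a DNA sensor of the same list, read 11.2 FPKM in the KO and 16.9 FPKM in the WT library (-0.55). Oasl2, Oas2, Sp100, Parp14 and Ifi203 had log2 ratios of -0.41, -0.31, -0.34, -0.32 and -0.30, and exons of Ifi203 overlap Mndal. Macrophage markers were also lower in the KO library, at a median of -0.25, and their part in the interferon list was not tested.

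Interferon receptors, kinases and transcription factors split 15 lower to 10 higher among 25 measured, around a median log2 ratio of -0.03. Irf8, a transcription factor of the macrophage lineage, read 20.3 FPKM in the KO and 29.0 FPKM in the WT library (-0.49). Irf1 had a log2 ratio of 0.29 and Isg15, the ubiquitin-like modifier, one of 0.24. Ifnb1, the interferon beta gene, was listed at 0 in both libraries. None of the 25 passed 1.5-fold, against 0.410% of all measured genes higher and 0.940% lower.

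Other virus restriction factors were mostly lower in the KO library, as was Ifitm3. Bst2, Ly6e, Rsad2 and Trim25 are also on the interferon-stimulated list, so the 2 lists are not separate. Of 13 measured, 10 were lower and 3 higher, with a median of -0.06, against 0.03 over all measured genes. None passed 1.5-fold, against 0.410% of all measured genes higher and 0.940% lower. Bst2, tetherin, which holds budding virus at the cell surface, stood at 117 FPKM in the KO and 140 FPKM in the WT library (-0.25). Ly6e, a lipid-anchored surface protein that blocks coronavirus entry, stood at 246 FPKM in the KO and 291 FPKM in the WT library (-0.24). Apobec3, a cytidine deaminase that acts on retroviruses, overlaps Cbx7 in its exons and stood at 0.21 (log2 ratio).

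Genes whose products bind or modify IFITM proteins were near 0, with a median log2 ratio of 0.01 over 23 measured. The split was 14 higher to 9 lower as deposited and 10 higher to 13 lower after either scaling. Cd81, a tetraspanin, stood farthest from 0 among those at 10 FPKM or more, at 35.4 FPKM in the KO and 49.98 FPKM in the WT library (-0.49). The proton pump subunit gene Atp6v0c had a log2 ratio of 0.14 and the ubiquitin ligase gene Smurf1 one of 0.10. Zdhhc20, which palmitoylates IFITM3, read 25.4 FPKM in the KO and 27.3 FPKM in the WT library. Zmpste24, a membrane protease that works with IFITM proteins, read 43.9 FPKM in the KO and 44.2 FPKM in the WT library. Both were chosen after their values were seen, as was Lyplal1, at 3.90 FPKM in the KO and 1.86 FPKM in the WT library. Lyplal1 was the 1 gene of the list past 1.5-fold, against 0.410% of all measured genes that were 1.5-fold higher.

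**Figure D4:**
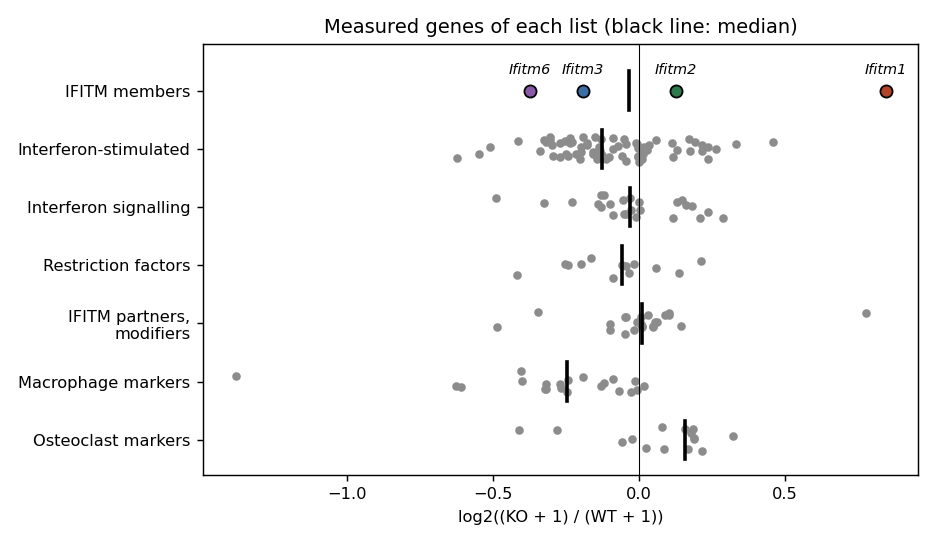
Log2 ratios of the measured genes in 7 lists, 1 point per gene, with black lines at the medians (vertical scatter within a list has no meaning). Ifitm1 at 0.85 lies to the right of all 69 interferon-stimulated genes, whose median is -0.13, while the other 3 IFITM members lie within their range. The family was chosen with this contrast known.

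The genes most like each member were taken as the 3 nearest in log2 ratio among genes of like level, over 2 libraries, which leaves a single ratio as the measure of likeness. For Ifitm1 they were Colec12, a scavenger receptor, at 18.9 FPKM in the KO and 10.6 FPKM in the WT library (0.78), H2-M2 (0.69) and Bcl2a1b (0.62), the last 2 from families with similar copies. Colec12, the nearest, was 0.0676 away from the Ifitm1 ratio. For Ifitm2 they were Pkm, Rps24 and Atp6v1f, all at 0.12, and for Ifitm3 Sdcbp (-0.22), Serinc3 (-0.16) and Hspa5 (-0.15). For Ifitm6 they were Rxra (-0.37), Cyb5d1 (-0.38) and Gramd1b (-0.37).

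Markers of cells outside the macrophage lineage, and of monocytes and osteoclasts, were compared for the same libraries. The 16 neutrophil markers found summed to 170 FPKM in the KO and 178 FPKM in the WT library, with 9 of 12 measured lower. S100a8 stood at 67.0 FPKM in the KO and 70.2 FPKM in the WT library and S100a9 at 55.4 FPKM in the KO and 53.6 FPKM in the WT library. The 11 progenitor markers summed to 7.44 FPKM in the KO and 8.19 FPKM in the WT library, with Ly6a the highest at 3.45 FPKM in the KO and 3.76 FPKM in the WT library and 8 under 1 FPKM in both. The 11 mast cell, basophil and eosinophil markers summed to 1.38 FPKM in the KO and 2.11 FPKM in the WT library, with Fcer1a, Ms4a2, Tpsb2 and Cma1 at 0 in both. Each of these sums was lower in the KO library. The 10 monocyte markers summed to 2661 FPKM in the KO and 2452 FPKM in the WT library, nearly all from S100a4, which macrophages also express, while 4 of the 7 measured were lower, with a median log2 ratio of -0.18. F13a1, coagulation factor XIII, read 20.5 FPKM in the KO and 13.3 FPKM in the WT library (0.58), while Ly6c2 and Ccr2, chosen after their values were seen, were at 1.66 and 2.42 FPKM in the KO and 2.19 and 3.11 FPKM in the WT library. The monocyte sum was higher in the KO library, though the median of its members was below 0. The 15 osteoclast markers summed to 24763 FPKM in the KO and 22034 FPKM in the WT library, mostly from Acp5, Ctsk and Mmp9. Of the 15, 11 were higher in the KO library and 4 were lower, namely Dcstamp, Calcr, Itgb3 and Cd109. Mmp9 and the lower genes were named after their values were seen. The part of any of these cell types in the Ifitm1 value was not tested.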

How the data were processed

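Each library has 1 table of gene symbols and values, which were read as FPKM. Per the submitters' processing notes, TopHat, edgeR and mm10 were used, with roles and versions not given in the sources used here. Poly-A RNA and a TruSeq kit are given per the labels' protocols. The unit was taken from the values: the deposited FPKM are not whole, sum to 540601 in the KO and 530701 in the WT library, and carry a constant of 0.000001, which was subtracted. No count model was used. Relative depth is the most frequent KO/WT ratio among 1653 genes under 0.15 FPKM.

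The members and gene lists were chosen with earlier results of these data known. Named genes are the members, relatives, neighbours, the 3 members of each list farthest from 0 at 10 FPKM or more (6 for interferon-stimulated genes), the 2 most abundant of each marker list and the 3 nearest genes. A neighbour and several marker genes taken by the rule are not reported here. Of 283 list entries 273 were found, by symbol or a unique RefSeq synonym. Coordinates and overlaps of exons on either strand come from GENCODE M21. Protein sequences were not used here, and coding bases were aligned instead. The log2 ratio, the 2-fold call and the trimmed-mean factor were tested on simulated data. The searches for motifs, shared stretches and overlaps, the alignment and the depth estimate were not. Python 3.11.15, numpy 2.4.6, pandas 2.3.3, Biopython 1.88 and matplotlib 3.10.9 were used. Alternatives varied the pseudocount (0.25, 5 or none), minimum, threshold, scaling and level window.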

Additional observations from a re-analysis of the deposited data

How the results depend on the processing

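The direction of all 4 members held under pseudocounts of 0.25, 5 and none and under both scalings, with log2 ratios of 0.69 to 0.90 for Ifitm1, 0.10 to 0.13 for Ifitm2, -0.22 to -0.19 for Ifitm3 and -0.41 to -0.27 for Ifitm6, none past 2-fold. The 2 scalings use nearly the same factor, 1.02. Shares of the family total weighted by transcript length moved Ifitm1 to 2.26% in the KO and 1.23% in the WT library. The median of the interferon-stimulated list ran from -0.15 to -0.08. The median of the IFITM partners turned to -0.016 under trimmed-mean scaling and -0.015 under median centring, and that of the monocyte markers turned from -0.18 to 0.25 with a minimum of 10 FPKM, which leaves fewer genes. By construction, the 12 genes 2-fold higher became 5 when 5 FPKM was added before taking logs, 5 under a minimum of 10 FPKM and 41 at 1.5-fold. The 20 genes 2-fold lower became 6 when 5 FPKM was added, 39 when 0.25 FPKM was added and 94 at 1.5-fold. No paired analysis was possible because each genotype has 1 library, which also prevents leaving 1 out. Depth limits Ifitm6 and Ifitm1 more than Ifitm2 and Ifitm3.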

Other observations

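The motif found in the searched windows of Ifitm2 and Ifitm3, and not in those of Ifitm1 and Ifitm6, was looked up across the interferon-stimulated list. Of its 54 measured genes with a RefSeq window, 25 held the interferon-stimulated response element core (46.3%), against 3.83% of 8124 measured genes with a window. The 25 genes with the core had a median log2 ratio of -0.11, and 17 were lower in the KO library. The 29 genes without it had a median of -0.10, and 21 were lower. The GTAAACA forkhead motif found in Ifitm1 was in the windows of 249 measured genes, whose median log2 ratio was -0.01, against 0.03 for measured genes without it. Within the interferon-stimulated list 4 genes held it, with a median of 0.01 and 2 lower, and the 50 without it had a median of -0.12, with 36 lower.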
